A study of Homo sapiens with 8 samples.

Results

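Cytosolic heat shock proteins are the chaperones that fold new or damaged proteins in the cytosol. HSP70 proteins bind exposed stretches of a client, J-domain proteins of the HSP40 group bring clients to them, HSP110 proteins exchange their nucleotide, and HSP90 proteins finish the folding of kinases and other signalling proteins. The factor HSF1 induces many of these genes when unfolded proteins accumulate. The genes described here are the HSP70 genes HSPA1A, HSPA1L and HSPA8, the HSP90 genes HSP90AA1 and HSP90AB1, the HSP110 gene HSPH1 and the J-domain gene DNAJB1. They were found through the platform's probe-to-gene annotation, and a feature (1 spot design) was kept when it had values on 6 or more arrays. That gave 11 features of 4 genes, out of 13 annotated features of these genes and 15246 features in all. HSPA1A had 4 such features, HSPA1L 2, HSP90AA1 3 and HSP90AB1 2. No feature was annotated to HSPA8, HSPH1 or DNAJB1, and they were not analysed here. At the threshold, an HSPA1A feature with 6 values was kept, while an HSPA1L feature with 5 values and an HSPA1A feature with 4 were not.

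RNA came from L363, an established human plasma cell line labelled as multiple myeloma from bone marrow. Cells received 12.5 µM MLN120B (MLN120b in the labels), a small-molecule inhibitor of the NF-κB-activating kinase IKKβ, for 8 h (2 samples), 12 h (3) or 24 h (3) at 37 °C, and each sample was read in Cy5 on a 2-colour array against Cy3-labelled cDNA of L363 cells given the solvent DMSO. Values are log2 ratios centred on each array's median, likely MLN120B over DMSO, since the labels give the dyes but not the direction; with the sign turned, every direction below reverses. The dyes were never exchanged, and an effect of the dye on a feature cannot be told apart from that of MLN120B. The labels do not say that the samples were separate cultures. The p-values therefore measure how far these samples scatter, and that scatter may be technical. All samples come from 1 cell line, and log ratios hold no level, so its identity was not checked against marker levels.

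Between 6344 and 13007 features had a value per array. Arrays fell into 3 runs of consecutive database identifiers in their labels. Run 1 has no 8 h array and takes in sample 3 of both later times. Run 2 is made up of sample 2 of the 8 h group with sample 1 of both later groups, and run 3 of sample 1 of the 8 h group with sample 2 of both later groups. The median absolute deviation (MAD, scaled to an SD) over features was 0.78 to 1.07 on the arrays of run 2, against 0.18 to 0.48 on the other arrays. Genes were averaged over their kept features on each array. As a check of the treatment, the NF-κB target NFKBIA, which encodes IκBα, lay between -1.56 and -0.30 on the 8 arrays, and TNFAIP3, which encodes A20, lay between -1.64 and -0.10. Both were below 0 on every array, with limma adjusted p-values over all rows of 0.52 and 0.91.

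HSF1 recognises repeats of the unit GAA or its reverse, TTC. The stretches below lie before start sites of measured genes where the window holds the pair GAANNTTC. They are shown because they set out this pair, a letter match found in some window of each measured gene. They also set out the window that HSPA1A and HSPA1L have in common. They are RefSeq sequences of GRCh38.p14, printed 5′ to 3′ on the gene's strand, with each GAANNTTC in capitals.
HSPA1A, chr6:31815293-31815542, plus strand: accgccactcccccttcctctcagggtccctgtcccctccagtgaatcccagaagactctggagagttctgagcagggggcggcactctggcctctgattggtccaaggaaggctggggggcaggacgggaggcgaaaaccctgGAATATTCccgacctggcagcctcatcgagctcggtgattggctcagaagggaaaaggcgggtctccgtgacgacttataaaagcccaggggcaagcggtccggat
HSP90AA1, chr14:102087090-102087157, minus strand: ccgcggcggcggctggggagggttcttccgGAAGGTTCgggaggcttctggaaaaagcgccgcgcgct
HSP90AB1, chr6:44247753-44247873, plus strand: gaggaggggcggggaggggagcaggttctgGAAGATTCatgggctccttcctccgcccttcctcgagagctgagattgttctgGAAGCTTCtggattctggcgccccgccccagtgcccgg

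GAANNTTC reads the same on both strands, and 6.77% of the 35116 RefSeq windows of 300 bases (250 before to 50 after a start) held it. HSPA1A and HSPA1L start 260 bases apart on opposite strands, and their windows share 241 bases. The pair GAATATTC therefore lies at -106 to -99 from the HSPA1A start and at -161 to -154 from that of HSPA1L. A longer run of 3 alternating units, each 2 bases from the next, holds the pair within it and was in 0.49% of all windows on either strand. It occurred once in 1 of 2 windows of HSP90AA1, at -88 to -76, and at 2 places in 1 of 3 windows of HSP90AB1, at -165 to -153 and -112 to -100. A TATAAA box, found on either strand in 11.5% of windows, lay at -30 to -25 in HSPA1A. The NF-κB consensus, in 7.73% of windows, was absent from the windows of HSPA1A, HSPA1L and HSP90AA1; 1 window of HSP90AB1 held 3 overlapping matches within -25 to -14. These matches are letters in a window and not measured binding.

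None of the 4 genes passed the test over the 3 times. In the linear model (limma, ratio against 0, Benjamini-Hochberg over all 5961 gene rows) 0 rows passed, 0% of those tested, and 188 rows, 3.15%, had an unadjusted p under 0.05, with none of the 4 among them. From highest to lowest the order was HSPA1A at 0.24 ± 0.15, HSP90AB1 at 0.20 ± 0.13, HSP90AA1 at -0.0055 ± 0.12 and HSPA1L at -0.21 ± 0.24 (SE, n = 8 arrays each). The 95% intervals of neighbours in that order overlapped. The median of the 4 means was 0.096, beside -0.0071 over all rows, and 2 of 4 were above 0, beside 48.5% of all rows. Of 81 values of the 11 features, 6 lay outside the 5th to 95th percentile of their own array, 7.41%, where 10% of all values lie by construction.

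HSPA1A encodes the inducible HSP70, which is low in most unstressed cells and rises sharply with heat or proteasome block. At 8 h it was at 0.092 on sample 1 and -0.13 on sample 2. At 12 h it was at 0.80, 0.0050 and 0.012 on samples 1, 2 and 3. At 24 h it was at 0.88, 0.17 and 0.29 on samples 1, 2 and 3. The values at 8 h lay on both sides of 0, and all values at 12 h and 24 h were above it. Of these, 0.0050 and 0.012 at 12 h were next to 0, on arrays with deposited medians of -0.006 and -0.15 before centring. The 2 highest were both of run 2. A gene row lay above 0 on all 24 h arrays with a value in 17.2% of cases.

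The fitted means of HSPA1A were -0.017 ± 0.30 at 8 h, 0.27 ± 0.24 at 12 h and 0.45 ± 0.24 at 24 h (SE). Here and below, the fitted SE of a time rests on 1 spread per gene shared by all arrays. It is not the scatter at that time alone. The value at 24 h stood at the 95.8th percentile of gene rows and did not pass (limma adjusted p = 0.9997; 0% of rows passed at 24 h, and 2% had an unadjusted p under 0.05). Its 95% interval ran from -0.099 to 1.00. Without run 2 the mean was 0.23 at 24 h and 0.0084 at 12 h. The difference of 24 h from 8 h was 0.47 ± 0.38 (limma adjusted p = 0.999; 0% of rows passed, and 0.872% had an unadjusted p under 0.05). That of 24 h from 12 h was 0.18 ± 0.34 (limma adjusted p = 1.00; 0% and 0.654% of rows), and values at 12 h and 24 h overlapped. Within a sample number, which for these times is also within a run, 24 h minus 12 h was 0.084, 0.17 and 0.28 on samples 1, 2 and 3. All these differences were above 0, as in 9.43% of the 3575 gene rows with values in the 3 pairs, and on sample 1 the arrays share no HSPA1A feature. The SE of the difference was 0.24 with the sample number as a block (limma adjusted p = 0.9997) and 0.28 with the run as a block (adjusted p = 0.97).

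The 4 features of HSPA1A had unequal values. Feature 27944_1 was at 0.40, 0.35 and 0.54 on the 8 h, 12 h and 24 h arrays of run 3 and, at 24 h, at 0.49 on sample 3, between the 93.1th and 96.9th percentile of those arrays. The values -0.044 (sample 3, 12 h) and -0.12 (sample 2, 8 h) were below 0, and it had no value on sample 1 at 12 h or 24 h. On the 3 arrays of run 3 the other features, 16597_1, 17604_1 and 27165_1, lay between -0.17 and 0.23. The gene's value on sample 1 at 24 h, its highest, came from feature 17604_1 alone, and that on sample 1 at 12 h from 1.28 on 16597_1 and 0.32 on 27165_1. Feature means over the 3 times were 0.27 ± 0.17 for 27944_1, 0.27 ± 0.17 for 27165_1, 0.060 ± 0.21 for 16597_1 and -0.011 ± 0.19 for 17604_1 (SE). Among all 8794 features 0 passed, 0%, and 3.29% had an unadjusted p under 0.05. HSPA1B, a near-identical neighbour of HSPA1A, was not among the genes tested, and a spot for 1 of them can bind RNA of the other.

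**Figure D1:**
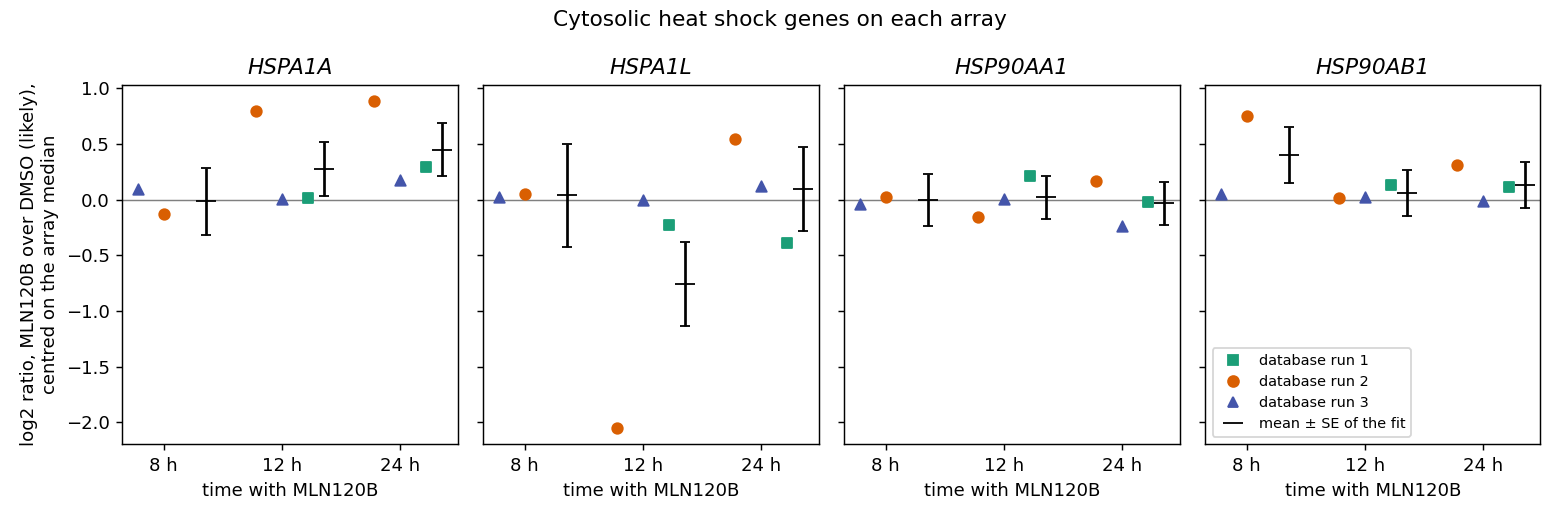
Centred log2 ratio (likely MLN120B over DMSO) of the 4 measured heat shock genes on each array, by hours with MLN120B; each point is 1 array, its shape and colour give the database run, and black bars are the fitted mean ± SE of each time. The SE rests on 1 spread per gene shared by all arrays. HSPA1A lies above 0 on all 12 h and 24 h arrays, with 0.80 and 0.88 in run 2. Its other 12 h values, 0.0050 and 0.012, are next to 0. The HSPA1L mean at 12 h rests on -2.05 on 1 array.

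HSPA1L encodes an HSP70 close in sequence to the product of HSPA1A but not heat-inducible, best known from testis. It was at 0.021 and 0.055 on samples 1 and 2 at 8 h. It was at -2.05, -0.0010 and -0.23 on samples 1, 2 and 3 at 12 h. At 24 h the values were 0.54, 0.12 and -0.39 on samples 1, 2 and 3. All 12 h values were below 0, as in 11.1% of gene rows, and 1 of them, -0.0010, was next to 0; at 24 h the arrays lay on both sides.

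The fitted mean of HSPA1L was -0.76 ± 0.38 at 12 h (SE, 95% interval -1.62 to 0.095; limma adjusted p = 0.94; 0% of rows passed at 12 h, and 3.14% had an unadjusted p under 0.05). It was 0.038 ± 0.46 at 8 h and 0.093 ± 0.38 at 24 h. The SE at 8 h takes in the spread at 12 h, as the 8 h values themselves were 0.021 and 0.055. Sample 1 at 12 h, an array of run 2, set the 12 h value: without it the mean was -0.12 at 12 h, and over the 3 times it was 0.0051 in place of -0.21. On that array feature 28886_1 was at -3.73, at the 0.90th percentile, while feature 17589_1 was at -0.37. The range of 3.37 between these features compares with a median range of 1.23 over the 1250 genes with more than 1 feature on that array. At 12 h alone 28886_1 had a mean of -1.45 ± 0.58 (SE, unadjusted p = 0.034, adjusted p = 0.91 over all features; 0% of features passed there and 3.51% had an unadjusted p under 0.05). Feature 17589_1 was at -0.066 ± 0.26 there. The HSPA1L feature left out for having 5 values was at -0.28 and -0.24 on samples 2 and 3 at 12 h.

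HSPA1A and HSPA1L share most of the window shown above, and their ratios were apart on some arrays. The difference, HSPA1A minus HSPA1L, was 0.071 and -0.18 on samples 1 and 2 at 8 h. It was 2.85, 0.0060 and 0.24 on samples 1, 2 and 3 at 12 h, and 0.34, 0.050 and 0.68 on samples 1, 2 and 3 at 24 h. HSPA1A was the higher ratio on 7 of 8 arrays, with a median difference of 0.16; this is a description, as the pair was chosen with earlier results known.

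HSP90AA1 encodes HSP90α, the stress-inducible HSP90 of the cytosol. It was at -0.038 and 0.026 on samples 1 and 2 at 8 h. At 12 h it was at -0.16, 0.0040 and 0.21 on samples 1, 2 and 3, and at 24 h at 0.17, -0.24 and -0.025. Arrays lay on both sides of 0 at every time, 4 above and 4 below in all. Fitted means were -0.0060 ± 0.23 at 8 h, 0.021 ± 0.19 at 12 h and -0.032 ± 0.19 at 24 h (SE), and the 95% interval of the mean over the 3 times ran from -0.28 to 0.27. A change of up to about that size in either direction is within the error of these arrays.

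The near-zero mean of HSP90AA1 averaged features of either sign on the widely spread arrays. On sample 1 at 12 h its features 17010_1, 17011_1 and 19351_1 were at -0.59, -0.68 and 0.80. On sample 1 at 24 h they were at 0.77, -0.31 and 0.040. Such ranges, 1.49 and 1.08, were near the medians over all genes with more than 1 feature on those arrays, 1.23 and 1.08. On sample 2 at 24 h, of run 3, all were below 0, at -0.22, -0.053 and -0.43, the last at the 4.8th percentile of that array. Feature means over the 3 times were -0.039 ± 0.16, -0.056 ± 0.15 and 0.11 ± 0.16 (SE).

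HSP90AB1 encodes HSP90β, the constitutive cytosolic HSP90; HSP90 proteins are known to bind the IKK kinases as clients. It was at 0.050 and 0.75 on samples 1 and 2 at 8 h. At 12 h it was at 0.015, 0.028 and 0.13 on samples 1, 2 and 3, and at 24 h at 0.31, -0.014 and 0.11. HSP90AB1 was above 0 on 7 of 8 arrays, with 0.015, 0.028 and 0.050 next to 0. The share of all rows with such a count was not taken. On the arrays of run 2 it was at 0.75, 0.015 and 0.31 at 8 h, 12 h and 24 h. On the arrays of runs 1 and 3 it lay between -0.014 and 0.13. Fitted means were 0.40 ± 0.25 at 8 h (0% of rows passed at 8 h, and 2.1% had an unadjusted p under 0.05), 0.057 ± 0.21 at 12 h and 0.14 ± 0.21 at 24 h (SE; adjusted p = 0.9996, 0.988 and 0.9997). Without sample 2, the 8 h value was 0.050.

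Here too 1 feature carried the size. Feature 37759_1 reached 1.56 (sample 2, 8 h) and 1.32 (sample 1, 24 h), at the 94.1th and 95.1th percentile of those run 2 arrays. Feature 37854_1 of the same gene was at -0.061 and -0.70 on those arrays. The ranges of 1.62 and 2.02 compare with medians of 0.90 and 1.08 over all genes with more than 1 feature there. In runs 1 and 3 the first ran from -0.20 to 0.11 and the second from -0.010 to 0.27. Their means over the 3 times were 0.49 ± 0.24 and -0.042 ± 0.15 (SE, adjusted p = 0.92 and 0.98 over all features). Feature 37759_1 was above 0 on 4 of 7 arrays with a value and 37854_1 on 4 of 8. HSP90AB1 minus HSP90AA1 was above 0 on 7 of 8 arrays, with a median of 0.14. The difference ran from -0.086 on sample 3 at 12 h to 0.72 on sample 2 at 8 h. This too is a description, with no share over other gene pairs beside it.

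**Figure D2:**
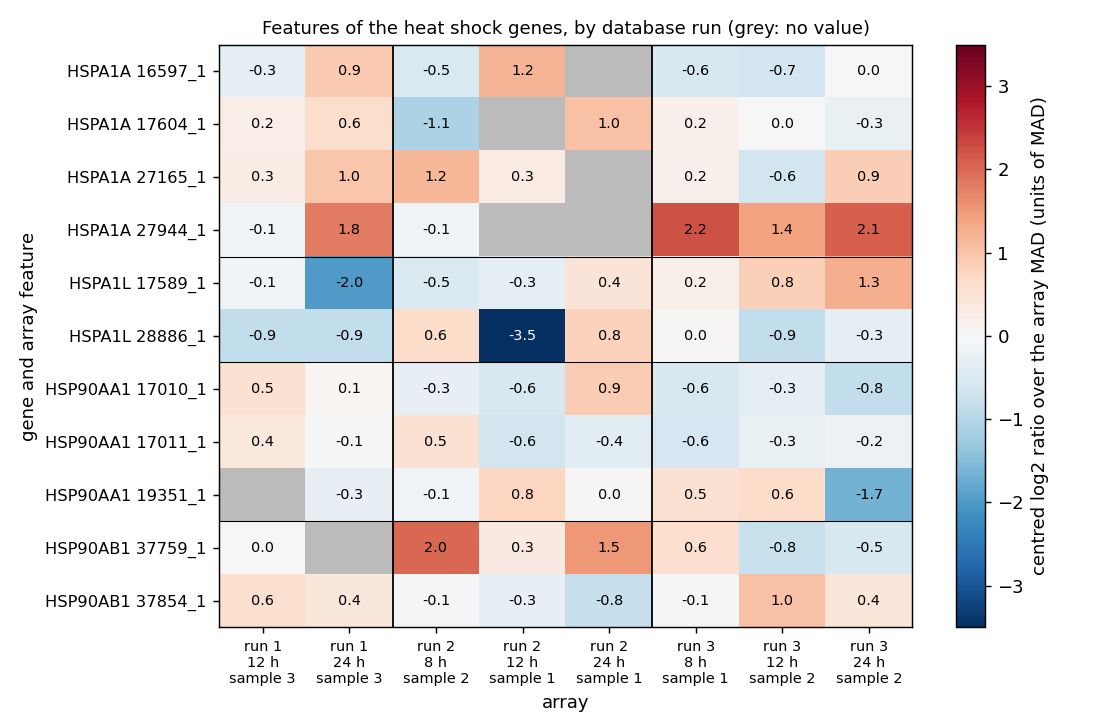
Centred log2 ratio of each of the 11 features divided by its array's MAD (colour and number, in MADs); columns are the 8 arrays grouped by database run, rows are features grouped by gene, and grey marks no value. Most cells lie within 1 MAD of 0, HSPA1A feature 27944_1 is high on the 3 arrays of run 3, and HSPA1L feature 28886_1 is at -3.5 on sample 1 at 12 h.

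By run, the mean of HSPA1A over arrays was 0.15 in run 1, 0.52 in run 2 and 0.090 in run 3. HSPA1L averaged -0.31, -0.48 and 0.048 in runs 1, 2 and 3, HSP90AA1 averaged 0.095, 0.012 and -0.090, and HSP90AB1 averaged 0.12, 0.36 and 0.021. The means of HSPA1A and HSP90AB1 thus had the same sign in all runs and were largest in run 2, while those of HSPA1L and HSP90AA1 had no common sign. With the run as a fixed block the means over the 3 times were 0.20, -0.21, 0.011 and 0.20 for HSPA1A, HSPA1L, HSP90AA1 and HSP90AB1, none past the threshold. Without run 2 they were 0.11, -0.075, -0.020 and 0.059.

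The profile of HSPA1A over the 8 arrays, in MADs, was nearest to those of CD44, FANCL and PA2G4, with mean absolute differences of 0.25, 0.29 and 0.31 MADs among 2193 named genes with values on all arrays. That of HSPA1L was nearest to IRAG2, PARVG and CNOT6L, with 0.31, 0.33 and 0.37. Nearness here is likeness of small ratios on arrays that share runs, and it carries no test.

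Other genes of the chaperone system likewise had no member past the threshold, in either direction, where 0% of all 5961 gene rows passed. Of the heat shock factors and their inhibitor, 1 of 4 was measured: HSBP1, which encodes a small protein that binds HSF1 and restrains it, was at 0.47 ± 0.19 (SE, n = 7, adjusted p = 0.91), with 1.24 and 1.01 on 2 arrays of run 2, and -0.19 and -0.075 on sample 2 at 12 h and at 24 h. HSBP1 was at 0.49 on sample 1 at 8 h, and at 0.51 and 0.23 on sample 3 at 12 h and at 24 h. Of the J-domain co-chaperones 4 of 14 were measured, 1 above and 3 below 0, with a median of -0.17; DNAJA4 was at -0.25 ± 0.14 and DNAJC7 at -0.22 ± 0.18 (SE, n = 8 each). HSP70 exchange factors and regulators had 5 of 9 measured, 1 above and 4 below 0, with a median of -0.097. BAG2, an inhibitor of the ubiquitin ligase CHIP, was at -0.28 ± 0.17 (n = 6), and ST13, the HSP70-interacting protein Hip, was at -0.20 ± 0.18. BAG3, itself a target of HSF1 that links HSP70 to autophagy, was at 0.056 ± 0.13.

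Partners of HSP90 were 4 of 12 measured, 1 above and 3 below 0, with a median of -0.073. FKBP5, a co-chaperone of steroid receptors, was at -0.74 ± 0.53, with -5.24 on sample 1 at 12 h and values from -0.67 to 0.090 elsewhere. PTGES3, the co-chaperone p23, was at 0.18 ± 0.16 (SE), and CDC37, which brings kinases to HSP90, at -0.030 ± 0.19. The chaperonin and prefoldin list had 3 of 14 measured, all above 0, with a median of 0.15; its subunits CCT8 and CCT3 were at 0.15 ± 0.14 and 0.15 ± 0.12.

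Chaperones of other compartments had no member past the threshold either, again where 0% of all gene rows passed. In mitochondria 4 of 9 genes were measured, 1 above and 3 below 0, with a median of -0.053; the protease subunit gene CLPP was at -0.22 ± 0.18 and DNAJA3 at 0.13 ± 0.16 (SE). In the endoplasmic reticulum 7 of 11 were measured, 6 above 0, with a median of 0.11; HSP90B1, which encodes GRP94, was at -0.45 ± 0.31, with -2.82 on sample 3 at 12 h, and CALR, which encodes calreticulin, at 0.31 ± 0.15. Of other heat-inducible genes 2 of 6 were measured, ATF3 at -0.093 ± 0.14 and the haem oxygenase gene HMOX1 at -0.081 ± 0.11. None of 9 small heat shock protein genes and none of 10 other HSP70 and HSP110 genes was among the genes tested.

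**Figure D3:**
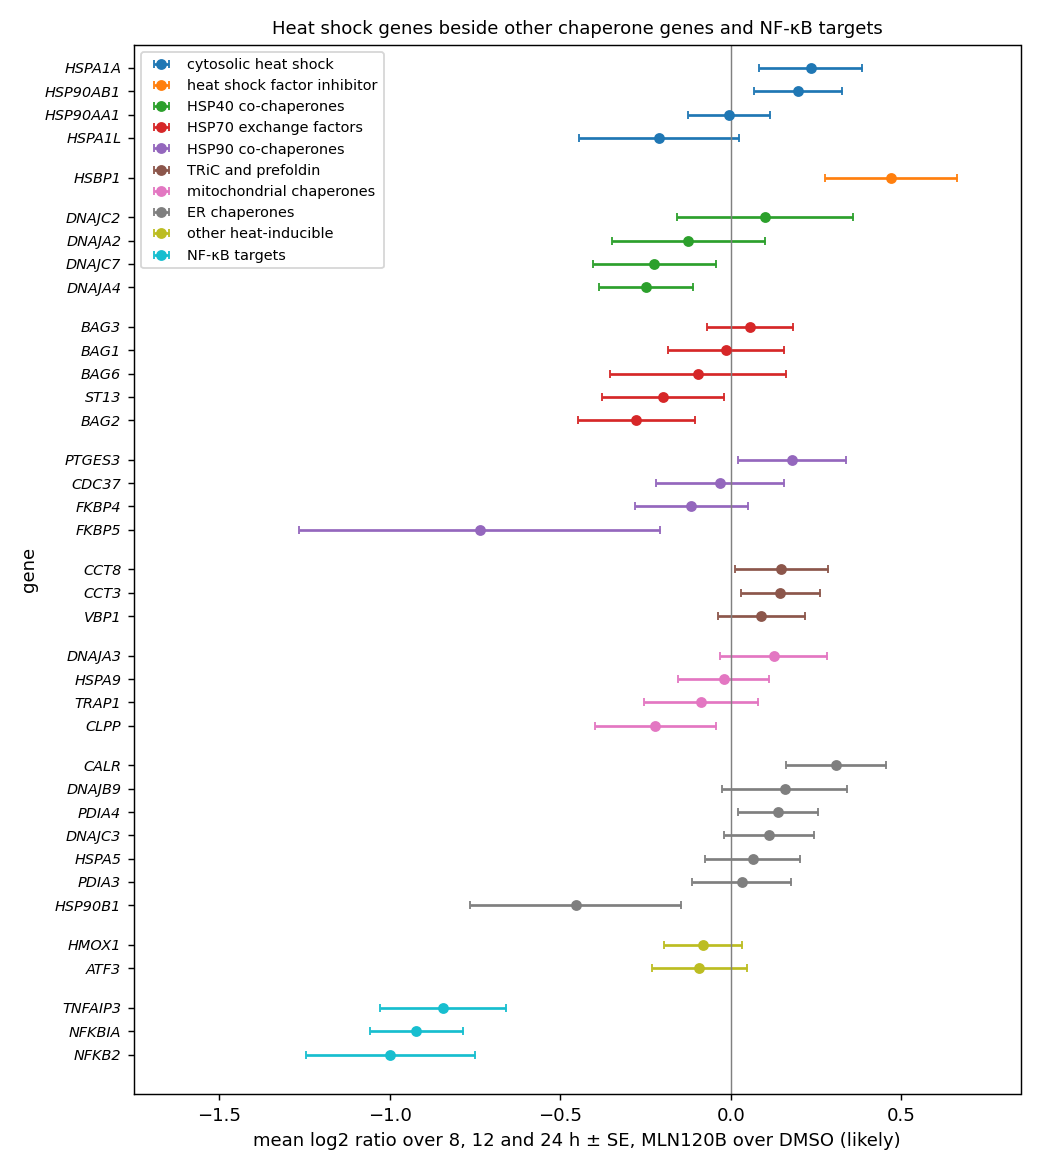
Mean log2 ratio over 8 h, 12 h and 24 h (x axis, likely MLN120B over DMSO) with its SE for each measured gene of the heat shock and chaperone lists and for 3 NF-κB targets, coloured by list. The 4 cytosolic heat shock genes span -0.21 to 0.24, while NFKBIA, TNFAIP3 and NFKB2 lie at -0.92, -0.84 and -0.998.

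Markers of plasma cells, the type of this line, and of other blood cells were measured in the same fit. Plasma cell markers had 8 of 8 measured, 6 above 0, with a median of 0.28. Of other cells, T cell markers had 4 of 5 measured with a median of -0.0066. Myeloid markers had 3 of 5 with -0.23 and erythroid markers 2 of 4 with 0.089. In any list 0 passed, where 0% of all gene rows did. The T cell gene CD3D was at -8.99 on sample 2 at 8 h, the array with 0.75 for HSP90AB1, and between -0.12 and 0.61 on the other arrays. Their part in the heat shock values was not tested.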

How the data were processed

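RNA of 8 samples was measured on 2-colour arrays; RNA was extracted with TRIzol, per the labels' protocols. The deposited values are log2 ratios, 1 column per array. Base 2 is inferred: 1 array reaches 12.4, above the 11.1 possible for natural logs of 16-bit ratios, and the other arrays are assumed to share it. No source used here gives the authors' background correction, filter, normalization or centring. Without intensities the signal over background is not known; precision is limited by how many arrays there are.

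Each array was centred on its median (deposited medians -0.48 to 0.001). Of the features, 10169 had 1 annotated gene, 4 had more than 1 and 5073 had no listed gene; symbols were updated through RefSeq (GRCh38.p14, names only) for 10128 features by Entrez identifier and 17 by accession, and 24 were kept. Features with values on 6 or more arrays were averaged per gene, and rows with a value at each time were tested with limma 3.58.1 in R 4.3.3 (lmFit, eBayes, a mean per time, 5 residual degrees of freedom with all values, ratio against 0, without the spread of the DMSO samples themselves), 2-sided, Benjamini-Hochberg over all rows, threshold 0.05. The fit was tested on simulated data. Tables and plots were made in Python 3.11.15 (pandas 2.3.3, matplotlib 3.10.9).

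Members and lists were chosen with earlier results of these data known. All members were named, and of other lists the 2 genes with the largest mean; BAG3, CDC37 and the deviating arrays were chosen after their values were seen. Deviations from time means correlated at 0.19, 0.23 and 0.31 between 12 h and 24 h arrays of the same sample number. These pairs also share a run, so number and run cannot be told apart there. All 7 pairs of arrays of 1 run, 8 h included, correlated at 0.14 to 0.31, and the 4 pairs of 1 number in different runs, all with an 8 h array, at -0.26 to -0.15. With 2 arrays at 8 h, their deviations mirror each other (r = -1). The negative values therefore follow largely from the positive values of the 8 h pairs within a run, and are no separate observation. Alternatives were other scalings, filters, averaging, blocks, weights and arrays or runs left out. Protein sequences were not used here.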

Additional observations from a re-analysis of the deposited data

How the results depend on the processing

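Across 23 alternatives no value of the 4 genes passed the threshold (352 values over the 3 times and at each time; smallest adjusted p 0.34 in limma), and 31 had the other sign; features kept single give no value per gene. HSPA1A kept its sign over the 3 times (0.094 with array weights to 0.30), at 12 h (0.0084 without sample 1 or run 2 to 0.41) and at 24 h (0.23 to 0.59). HSP90AB1 kept it over the 3 times (0.059 without run 2 to 0.34) and at 8 h (0.050 without sample 2 or run 2 to 0.75), and HSPA1L at 12 h (-1.14 to -0.12). HSP90AB1 over the 3 times was 0.081 without sample 2 at 8 h, and at 24 h it ran from 0.048 to 0.21 with 1 array left out. The median of the 4 genes ran from -0.033 to 0.17. Left-out arrays gave 0.032 to 0.13 for it.

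HSP90AA1 over the 3 times turned to 0.011 with the sample number as a replicate block and with the run as a fixed block, 0.0018 with the run as a random block, 0.0051 without sample 1 at 8 h, 0.024 without sample 1 at 12 h, 0.028 without sample 2 at 24 h and 0.042 without run 3. At 8 h it turned to 0.044 with either fixed block, 0.016 with the random block and 0.026 without sample 1 or run 3. At 12 h it turned to -0.16 on the values as deposited and -0.076 without sample 3 or run 1, and at 24 h to 0.070 without sample 2 or run 3. HSPA1L turned to 0.0051 over the 3 times without sample 1 at 12 h and to -0.0095 at 8 h as deposited. At 24 h it turned to -0.067 as deposited, -0.033 after quantile and -0.041 after scale normalization, -0.069 with array weights and -0.13 without sample 1 or run 2. HSPA1A at 8 h turned to 0.064 under both normalizations and 0.092 without sample 2 or run 2. HSP90AB1 turned to -0.12 at 12 h and -0.025 at 24 h as deposited, where the median over all rows lay at -0.12. With 1 array left out at a time, HSP90AA1 ran from -0.038 to 0.028 over the 3 times, -0.038 to 0.026 at 8 h, -0.076 to 0.11 at 12 h and -0.13 to 0.070 at 24 h. HSPA1L ran from -0.34 to 0.0051 over the 3 times and -0.13 to 0.33 at 24 h, and HSPA1A at 8 h from -0.12 to 0.092. The cause was not tested.

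Counts over all gene rows, 0 in every contrast, became 3 at 24 h after quantile normalization and with array weights, and 3 over the 3 times with the run as a fixed block. With features kept single they became 2 at 8 h and in both differences from 8 h. Without run 1 they were 2 at 12 h and for 12 h against 8 h. Without run 3 they were 10 over the 3 times, 21 at 8 h, 2 at 24 h, and 10 for each difference from 8 h. With 1 array left out they ran from 0 to 33 over the 3 times, 0 to 77 at 8 h, 0 to 2 at 12 h and 24 h, 0 to 52 for 24 h against 8 h, 0 to 53 for 12 h against 8 h and 0 to 2 for 24 h against 12 h; the highest counts of the contrasts that use 8 h came without sample 1 at 8 h, where 8 h rests on 1 widely spread array, assumed to vary like the other times. Counts over features for the 3 times were 1 as deposited, after quantile normalization and with a robust prior, 2 after scale normalization and with array weights, 6 with the run block, 20 without run 3 and 0 to 41 with 1 array left out. The sample-number block changed no call and left all these counts at 0. Blocks for the differences of 24 h from 12 h were chosen after seeing the data and changed no direction or call of the 4 genes. No gene row of the 4 genes was among the calls.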

Other observations

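HSPA8P14, annotated as a pseudogene of the constitutive HSP70 gene HSPA8, had 1 feature with values on 4 arrays and was not counted as HSPA8. It was at 0.069 on sample 1 at 8 h, -0.0040 and -0.37 on samples 2 and 3 at 12 h, and 0.058 on sample 2 at 24 h.

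The excluded HSPA1A feature with 4 values, 26418_1, was at -0.33 on sample 2 at 8 h and at 1.38, 0.14 and 0.30 on samples 1, 2 and 3 at 12 h. The excluded HSPA1L feature with 5 values, 16464_1, was at 0.12 on sample 1 at 8 h, -0.28 and -0.24 on samples 2 and 3 at 12 h, and -0.34 and -0.30 on samples 2 and 3 at 24 h.

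Promoter windows of 2 genes with no annotated feature also held this letter match. HSPA8 had the pair GAANNTTC at 2 places, at -230 to -223 and -50 to -43 from its start, each within the longer run. Of the 3 windows of DNAJB1, the first held no pair, the second held 2, at -77 to -70 and -47 to -40, and the third held 1, at 2 to 9. The window of HSPH1 held none.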
